A study of Mus musculus with 12 samples.

Results

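A set of 10 genes of the imprinted growth network were followed through a mouse study of the nuclear envelope: Igf2, Dlk1, Plagl1, Peg3, Mest, Nnat, Cdkn1c, Grb10, H19 and Meg3. They were chosen by symbol from a table of 22552 genes, with earlier results of these data known, and all 10 were found. Shares of the 10 set beside shares over all genes therefore describe the set and do not test it. Each knockout was a homozygous loss of Lbr, which encodes the lamin B receptor of the inner nuclear membrane, or of Lmna, which encodes lamins A and C of the nuclear lamina. The 12 samples were C57Bl/6 mice, with 6 samples of cultured myoblasts (muscle precursor cells) and 6 of striated muscle. The myoblast samples were 2 Lbr knockouts with 1 wild type of their litter, and 2 Lmna knockouts with 1 wild type of theirs. The muscle samples were 2 Lbr knockouts, 2 Lmna knockouts and 2 wild types. Homozygous knockouts and wild types were littermates from crosses of heterozygous parents. The titles of the muscle wild types name no litter, and the same wild types serve both muscle knockouts. The labels do not give the age of the animals, the targeted part of either gene or the muscle taken. The table has 7 columns of FPKM (fragment counts divided by transcript length and by the number of mapped fragments), 1 for each group. A knockout or muscle column therefore stands for 2 samples without a spread, and a wild-type myoblast column for a single library.

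An imprinted gene is transcribed mainly from the copy inherited from one parent, set by DNA methylation laid down in the germ line. Many such genes act on prenatal growth, with paternally expressed genes often promoting it and maternally expressed genes often restraining it. Several are abundant in fetal and neonatal tissues, muscle included, and decline after birth, and their co-regulation has led to the name imprinted gene network. Of the 10 genes, 6 are expressed from the paternal copy (Igf2, Dlk1, Plagl1, Peg3, Mest and Nnat) and 4 from the maternal copy (Cdkn1c, Grb10, H19 and Meg3), with Grb10 switching to the paternal copy in neurons. They lie in 8 imprinted domains: Igf2 and H19 are neighbours on chromosome 7, Dlk1 and Meg3 are neighbours on chromosome 12, and the others stand in domains of their own. FPKM values sum both parental copies, so none of the values below says which copy was transcribed.

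The sequences shown here belong to the genes called at 2-fold in a knockout: H19 and Igf2 in Lbr-knockout myoblasts, and Nnat in both knockout muscles. H19 is the primary transcript of miR-675, whose hairpin lies inside the H19 gene on chromosome 7. Its mature forms, from RefSeq on GRCm38.p6, are given 5′ to 3′ with the seed (bases 2 to 8) in capitals, the 5p form at chr7:142577112-142577133 and the 3p form at chr7:142577078-142577099, both on the minus strand.
mmu-miR-675-5p: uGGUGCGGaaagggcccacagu
mmu-miR-675-3p: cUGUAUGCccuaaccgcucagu
For Igf2 and Nnat, the 250 bases before a transcription start are printed with every CG dinucleotide, the site of DNA methylation, in capitals. The Igf2 window is that with the most CG of its 4 annotated starts, chr7:142658805-142659054 on the minus strand, and the Nnat window is chr2:157559828-157560077 on the plus strand, both RefSeq on GRCm38.p6.
Igf2: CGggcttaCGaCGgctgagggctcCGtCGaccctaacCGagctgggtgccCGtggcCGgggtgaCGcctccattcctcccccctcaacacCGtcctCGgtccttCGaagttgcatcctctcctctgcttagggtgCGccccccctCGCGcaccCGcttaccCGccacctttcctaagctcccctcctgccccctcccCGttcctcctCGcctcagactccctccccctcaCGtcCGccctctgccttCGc
Nnat: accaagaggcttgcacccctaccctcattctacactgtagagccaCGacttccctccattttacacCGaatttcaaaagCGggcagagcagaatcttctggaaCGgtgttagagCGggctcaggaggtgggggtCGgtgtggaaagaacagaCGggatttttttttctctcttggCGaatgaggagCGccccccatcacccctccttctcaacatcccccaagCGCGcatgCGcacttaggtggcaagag
These windows hold 22 CG in Igf2 and 12 in Nnat, against a median of 6 over 32851 windows of the same length. Of the 15 windows found for 8 of the 10 genes, 12 were above that median, with a range from 0 in a Meg3 window to 40 in a Grb10 window. The Mest windows at chr6:30737800-30738049 and chr6:30737803-30738052 overlap almost fully, and each is counted among the 15. The E-box CANNTG, the binding motif of the basic helix-loop-helix factors that include MyoD, was found in 7 of the 15, against 66.2% of all windows, and in neither window printed. GGGGCCCC, a GC-rich motif described for the Plagl1 protein, was found in the Peg3 window alone, against 0.889% of all windows. CANNTG and GGGGCCCC read alike on both strands, and the motifs do not overlap one another. A match is a description of the letters, and the FPKM values do not separate the starts of a gene. No window was printed for H19 or Cdkn1c.

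The labelled cell types were checked against their defining genes. In the 4 myoblast columns the myoblast factor Myod1 was at 2.09 to 5.51 FPKM, while Myf5 and Pax7 were below 1 FPKM in every column. Of the other myoblast markers, Chrna1 was at 2.67 to 14.1, Itga7 at 3.04 to 4.31 and Cdh15 at 0.498 to 1.22 FPKM. The fibroblast collagen gene Col1a1 was at 1027 to 1151 FPKM in the same columns and the macrophage lysozyme gene Lyz2 at 316 to 1131 FPKM. Of the other fibroblast markers, Col1a2 was at 823 to 988, Col3a1 at 276 to 528 and Thy1 at 250 to 434 FPKM. Pdgfra and Lum were lower, at 9.53 to 17.7 and 0.303 to 2.42 FPKM. The other macrophage markers were lower than Lyz2. C1qb was at 23.3 to 99.3, Csf1r at 10.4 to 39.2, Cd68 at 10.5 to 37.5 and C1qa at 1.47 to 14.3 FPKM. Emr1 and Ptprc were at 2.66 to 10.1 and 2.10 to 6.71 FPKM. In muscle the fibre genes were abundant, Ckm at 4488 to 5120 FPKM. The targeted genes were lower in their knockouts: Lbr was at 7.71 FPKM in Lbr-knockout myoblasts against 16.1 and 14.7 FPKM in the wild types, and Lmna at 18.5 FPKM in Lmna-knockout myoblasts against 114 and 147 FPKM. In muscle, Lbr was at 1.87 against 11.8 FPKM and Lmna at 22.6 against 59.5 FPKM in their knockouts. Total counts are unknown. A rough estimate took the most frequent product of FPKM and transcript length as 1 fragment. For 1 FPKM it gave 11.7 to 16.6 fragments per kilobase in myoblasts against 3.14 and 4.14 in Lbr-knockout and wild-type muscle. By this estimate the lowest levels rest on few fragments. No clear spacing was found in the Lmna-knockout muscle column, where 9.87% of low values lay within 5% of a whole number of fragments.

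The first comparison asked how the genes stood in each myoblast knockout relative to both wild-type columns. In Lbr-knockout myoblasts, Igf2 and H19, the linked pair of growth factor and non-coding RNA, were at least 2-fold above both wild types. In Lmna-knockout myoblasts none of the 10 reached that size, and Dlk1, Nnat and Igf2 were furthest above both. No gene of the 10 was below both wild types in either knockout. Differences are those of log2(FPKM + 1), a measure that makes changes of low genes look smaller than they are. A gene was called where it was at least 2-fold (1 on this scale) away from both wild types in the same direction.

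**Figure D1:**
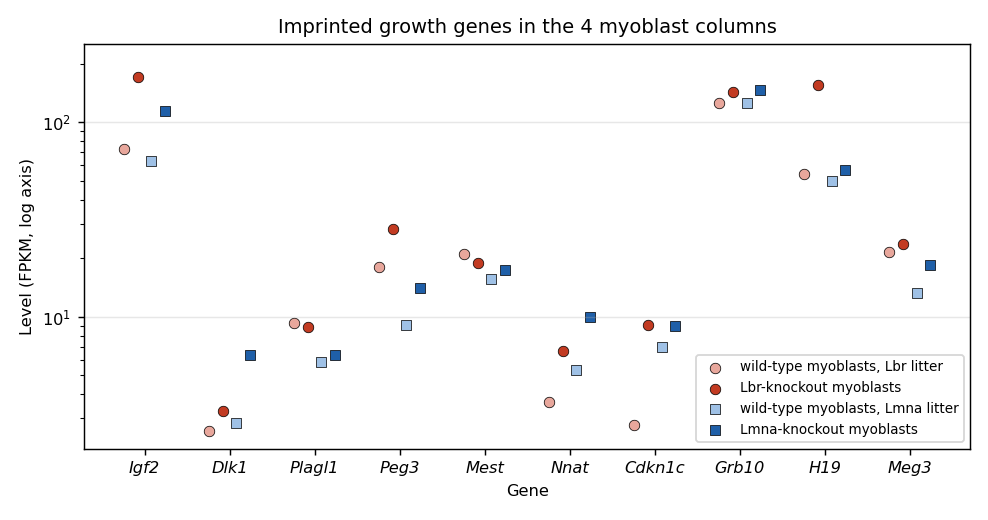
Level of each gene (FPKM, log axis) in the 4 myoblast columns: light symbols are wild types (single libraries), dark symbols knockouts (2 samples combined), circles the Lbr litter and squares the Lmna litter. Igf2 and H19 in the Lbr knockout, at 171 and 155 FPKM, lie apart from both wild types, while for Peg3, Plagl1, Mest and Meg3 both circles lie above both squares.

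Igf2, a secreted growth factor that signals mainly through the type 1 IGF receptor, was at 72.8 FPKM in the wild type of the Lbr litter and 63.1 FPKM in that of the Lmna litter. It was at 171 FPKM in the Lbr knockout and 114 FPKM in the Lmna knockout. Both knockout columns were above both wild types, the Lbr knockout the higher. The log2 differences were 1.22 and 1.43 for the Lbr knockout (from the Lbr-litter and Lmna-litter wild types) and 0.64 and 0.85 for the Lmna knockout, while the Lmna-litter wild type differed from the Lbr-litter one by -0.205.

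Dlk1, a membrane protein related to the Notch ligands that holds back fat cell differentiation, was near the lower end of the 10, at 2.58 and 2.85 FPKM in the wild types of the Lbr and Lmna litters. It was at 3.26 FPKM in the Lbr knockout and 6.37 FPKM in the Lmna knockout. The Lmna knockout stood apart from the other columns, which were close together. Its log2 difference was 1.04 against the Lbr litter's wild type but 0.93, just short of 2-fold, against its own. On FPKM itself the ratios were 2.47 and 2.23, and with a pseudocount of 0.1 in place of 1 the gene was called.

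Plagl1, a zinc finger transcription factor also known as Zac1, measured 9.31 and 8.90 FPKM in the Lbr litter (wild type, then knockout) and 5.87 and 6.38 FPKM in the Lmna litter. Peg3, a zinc finger protein also known as Pw1 that marks progenitor cells of muscle, was at 17.9 and 28.1 FPKM in the Lbr litter and 9.05 and 14.0 FPKM in the Lmna litter. For both genes the columns separated by litter. Each knockout of Peg3 was above the wild type of its own litter, by 0.62 for Lbr and 0.58 for Lmna on the log2 scale. Set against the other litter's wild type, the Lbr knockout was at 1.53 and the Lmna knockout at -0.33.

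Mest, an enzyme of the hydrolase fold, measured 21.0 and 18.8 FPKM in the Lbr litter (wild type, then knockout), and 15.7 and 17.4 FPKM in the Lmna litter. Both knockouts lay between the wild types. Nnat, which encodes neuronatin, a small proteolipid of the endoplasmic reticulum, measured 3.62 and 6.67 FPKM in the Lbr litter and 5.32 and 10.01 FPKM in the Lmna litter, again with the wild type first. Each Nnat knockout column was above both wild types. Nnat lies in an intron of Blcap on the opposite strand, and since the handling of strand is not given in the sources used here, its values are uncertain to that extent. The log2 differences from the Lbr-litter and Lmna-litter wild types were 0.73 and 0.28 for the Lbr knockout and 1.25 and 0.80 for the Lmna knockout.

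Cdkn1c encodes p57, an inhibitor of cyclin-dependent kinases that takes cells out of the cycle, in muscle precursors among others. It was at 9.09 FPKM in the Lbr knockout and 8.99 FPKM in the Lmna knockout, and at 2.78 and 7.02 FPKM in the wild types of the Lbr and Lmna litters. The knockouts were almost level and the wild types were not: they differed by 1.09 on the log2 scale, the only 2-fold difference between wild types among the 10 (not reached with a pseudocount of 5). The log2 difference of the Lbr knockout was accordingly 1.42 from its own wild type but 0.33 from the other. The Lmna knockout was at 0.32 from its own and 1.40 from the other.

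Grb10, an adaptor that dampens signalling of the insulin and IGF receptors, was the most abundant of the 10 in both wild types, at 125 and 126 FPKM. It was at 144 FPKM in the Lbr knockout and 146 FPKM in the Lmna knockout. The wild types differed by 0.01 on the log2 scale (-0.19 after quantile normalization, Lmna litter minus Lbr litter) and the knockouts were above them by 0.19 to 0.22. After quantile normalization the Lmna knockout was no longer above both.

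H19, a long non-coding RNA that shares enhancers with Igf2, was at 54.3 and 49.7 FPKM in the wild types of the Lbr and Lmna litters. It was at 155 FPKM in the Lbr knockout and 56.9 FPKM in the Lmna knockout. The Lbr knockout stood apart and the other columns were close. Its log2 differences of 1.499 and 1.62 were the largest of the 10 genes. The Lmna knockout was at 0.07 and 0.19, and was no longer above both wild types when the columns were centred on their medians or quantile normalized. The ratio of H19 to Igf2 in FPKM was 0.746 and 0.788 in the wild types of the Lbr and Lmna litters, 0.908 in the Lbr knockout and 0.498 in the Lmna knockout. The miR-675 hairpin, whose mature forms are printed above, has a row of its own. This row was at 0 in both Lbr-litter columns, 3.95 FPKM in the Lmna-litter wild type and 2.11 FPKM in the Lmna knockout. That row overlaps H19, and reads of the hairpin cannot be told apart from those of its host transcript.

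Meg3, the non-coding RNA of the Dlk1 domain, measured 21.5 and 23.6 FPKM in the Lbr litter (wild type, then knockout) and 13.2 and 18.4 FPKM in the Lmna litter. Its columns separated by litter. The ratio of Meg3 to Dlk1 ran from 2.89 in the Lmna knockout to 8.35 in the Lbr-litter wild type.

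Counted together, 2 of the 10 genes were at least 2-fold above both wild types in the Lbr knockout, against 0.454% of the 11457 genes compared, and 0 were 2-fold below, against 0.0786%. In the Lmna knockout 0 of the 10 were at least 2-fold above, against 0.349% of 11455 genes, and 0 below, against 0.297%. These shares leave out genes listed at 0 in a column compared: with them kept, 63 genes were 2-fold higher and 55 lower in the Lbr knockout in place of 52 and 9, and 52 higher and 80 lower in the Lmna knockout in place of 40 and 34. By any amount, 8 of 10 were above both wild types in the Lbr knockout, against 31.9% of genes, and 6 of 10 in the Lmna knockout, against 42.4%. Below both were 0 of 10 in either knockout, against 22.4% of genes for Lbr and 25.3% for Lmna. The 6 genes above both in the Lmna knockout (Igf2, Dlk1, Nnat, Cdkn1c, Grb10 and H19) were also above both in the Lbr knockout, while 11% of genes were above in both. Peg3 and Meg3 were above both in the Lbr knockout only. The comparisons share both wild types, and each knockout column stands for 2 samples where each wild type is a single library. Since the 10 genes were chosen with earlier results of these data known, their shares cannot be read as a test against all genes. Centring left 5 of 10 above both in the Lmna knockout and quantile normalization left 4, with 8 in the Lbr knockout under both.

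The median log2 difference of the 10 genes in the Lbr knockout was 0.44 against the wild type of its own litter and 0.43 against the other, with medians over all genes of 0.05 and -0.01. For the Lmna knockout it was 0.38 against its own litter and 0.14 against the other, with 0.04 and 0.10 over all genes. Ranked by the smaller of the differences from the wild types, H19 was at position 21 of 11457 genes in the Lbr knockout, Igf2 at 36 and Peg3 at 168. In the Lmna knockout Dlk1 was at position 43 of 11455 and Nnat at 66.

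**Figure D2:**
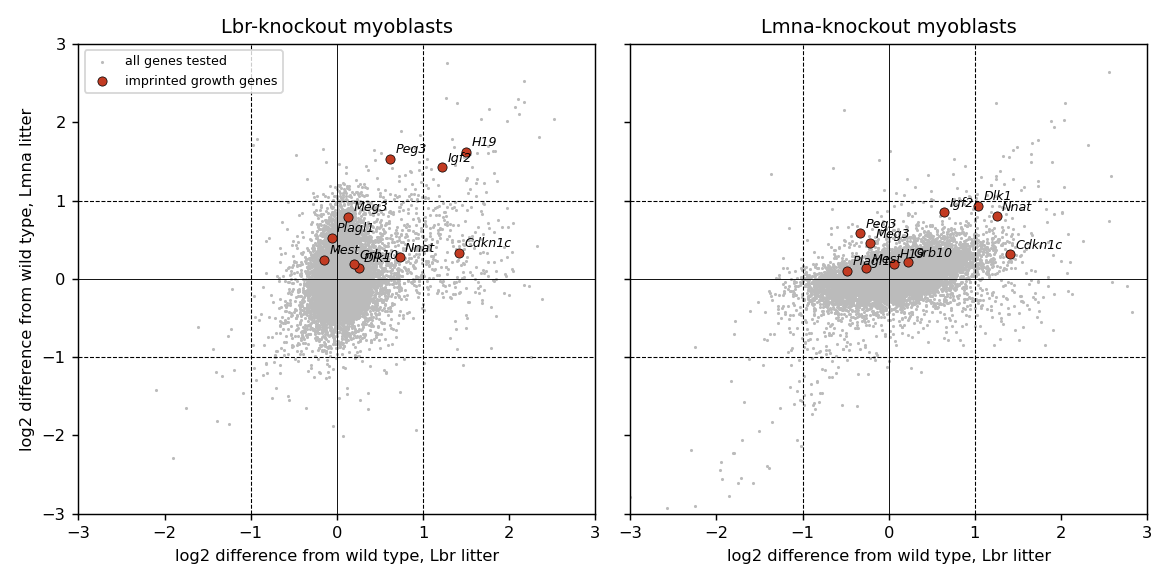
Log2 difference (FPKM + 1) of each knockout column from the wild type of the Lbr litter (x axis) and of the Lmna litter (y axis), with all genes tested in grey and the 10 genes in red. Dashed lines mark 2-fold and genes beyond 3 on either axis are not drawn. H19 and Igf2 are past both upper lines in the Lbr knockout, and no gene of the 10 is in the Lmna knockout.

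The only test the table allows in myoblasts is a limma model in which the wild types form 1 group. The 2 wild-type libraries alone supply the error (1 residual degree of freedom, with 25.8 added by the prior over all genes), and the model assumes that the knockout columns vary like them. In the Lbr knockout H19 passed, with a log2 difference of 1.56 (SE 0.35) and a limma p of 0.0459 adjusted by Benjamini-Hochberg over 11447 genes. Over all genes 0.28% were called higher and 0.0437% lower. Igf2 did not pass, at 1.32 (SE 0.36, limma adjusted p = 0.214), nor did Peg3 at 1.08 (SE 0.36, limma adjusted p = 0.512). For the Lmna knockout none of the 10 passed, against 0.21% of genes called higher and 0.201% lower. An unadjusted limma p under 0.05 was reached by 4 of the 10 in each knockout, against 2.98% of genes for Lbr and 3.53% for Lmna. Those of the Lmna knockout included Nnat at 1.03 (SE 0.33, adjusted p = 0.409) and Dlk1 at 0.99 (SE 0.32, adjusted p = 0.445). The H19 call was lost with a pseudocount of 0.1, without the filter on low values, and after centring or quantile normalization, the limma adjusted p ranging from 0.00958 to 0.765 over the alternatives tried.

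Markers of differentiating muscle cells moved with the Lbr comparison. All 10 of those in the table (Myog, Actc1, Des and others) were above both wild types in the Lbr knockout, with a summed level of 634 FPKM against 187 and 358 FPKM in the Lbr-litter and Lmna-litter wild types. The Lmna knockout had 9 of the 10 below both, with a sum of 110 FPKM, while Igf2 was above both wild types. None of these markers was at 0 in any myoblast column. Of 7 macrophage markers, whose sum was 367 FPKM in the Lbr-litter wild type and 1100 to 1328 FPKM in the other columns, 2 were above both wild types in the Lbr knockout. Cdkn1c was also lowest in the Lbr-litter wild type. Adipocyte markers summed to 4.73 and 4.65 FPKM in the Lbr-litter and Lmna-litter wild types. In the Lbr knockout 4 of 6 were above both wild types, with a sum of 10.7 FPKM, of which Fabp4 made up 10.5 FPKM. In the Lmna knockout, where Dlk1 and Nnat were highest, 5 of 6 were above both, with a sum of 23.7 FPKM, of which Fabp4 made up 20.5 FPKM. Retn was at 0 in all of these columns. Of the 6 adipocyte markers, 5 were under 1 FPKM in both wild types and the Lbr knockout, and 4 in the Lmna knockout. In the Lbr-litter and Lmna-litter wild types 3 and 4 of them were at 0, so these counts rest largely on values near 0. In the Lmna knockout 5 of 6 Schwann cell markers were also above both (sum 315 FPKM against 156 and 225 FPKM). The part of these cells in the levels of the 10 genes was not tested, and in bulk samples fewer cells of a type and less RNA per cell cannot be told apart.

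The wild types were compared with each other as the only measure of library spread within a genotype. Of the 10 genes, 1 (Cdkn1c) was at least 2-fold higher in the Lmna-litter library, against 2.03% of 11504 genes, and 0 were 2-fold lower, against 0.687%. Over all genes 233 were higher and 79 lower, or 192 and 108 after quantile normalization. Next to Cdkn1c the widest gaps were those of Peg3, at -0.91, and Meg3, at -0.67 (Lmna litter minus Lbr litter). Both Lbr-litter columns were above both Lmna-litter columns for 4 of the 10 genes, Peg3, Plagl1, Mest and Meg3, against 29.4% of genes, and below them for 0, against 39.3%. The share above is near that over all genes, while the share below is lower than over all genes, and neither was tested. Litter, culture and targeted gene cannot be told apart here.

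Other genes of the network were then examined. Of 58 further imprinted genes, 34 were compared in myoblasts, with a mean of at least 1 FPKM and no compared column at 0. None of the 34 was 2-fold from both wild types in either knockout. The shares 2-fold above and below over all genes were 0.454% and 0.0786% in the Lbr knockout, and 0.349% and 0.297% in the Lmna knockout. In the Lbr knockout 11 were above both and 5 below both, a share above of 32.4% against 31.9% over all genes, and 22.4% over all genes were below. In the Lmna knockout 20 of the 34 were above both (58.8%, against 42.4% over all genes) and 4 below both (against 25.3%). Dcn, the proteoglycan decorin, was at 40.2 FPKM in the Lbr knockout and 29.2 FPKM in the Lmna knockout against 23.6 and 20.3 FPKM in the Lbr-litter and Lmna-litter wild types. Gatm, an enzyme of creatine synthesis, was at 14.7 FPKM in the Lbr knockout, 6.70 in the Lmna knockout and 8.82 and 6.44 FPKM in the wild types. Ndn, the growth suppressor necdin, was at 38.3 FPKM in the Lmna knockout against 19.8 and 26.7 FPKM, and Peg10, of retrotransposon origin, at 27.9 against 19.7 and 18.5 FPKM. In the Lbr knockout Ndn was at 21.7 FPKM, between the wild types, and Peg10 at 21.97 FPKM. Dcn and Peg10 were thus above both wild types in both knockouts. Gnas, an abundant imprinted gene singled out after its values were seen, is listed at 0 in both knockout myoblast columns and at 871 to 1238 FPKM in the other columns. An exact 0 can be a failed estimate, so these values do not show a silent gene, and Gnas was not compared. Many genes of this list are imprinted only in particular tissues.

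The partners of Igf2 showed small differences. All 8 genes of IGF2 signalling were above both wild types in the Lmna knockout, against 42.4% of genes, and 5 were in the Lbr knockout with 2 below both, against 31.9% and 22.4%, but none reached 2-fold. Irs2, a docking protein of the insulin and IGF receptors, was at 10.3 FPKM in the Lmna knockout against 7.17 and 6.86 FPKM in the Lbr-litter and Lmna-litter wild types, and Irs1 at 14.1 against 9.29 and 10.9 FPKM. Igf2bp1 and Igf2bp2, which bind Igf2 mRNA, were at 4.25 against 2.98 and 2.62 FPKM and at 24.5 against 21.6 and 16.3 FPKM. Among 6 compared genes related to the 10 by family or pathway, 0 were called in either knockout. Over all genes 0.454% were called above and 0.0786% below in the Lbr knockout, and 0.349% and 0.297% in the Lmna knockout. Cdkn1a, which encodes p21, a relative of p57, separated by litter, with 205 and 232 FPKM in the Lbr litter (wild type, then knockout) and 374 and 412 FPKM in the Lmna litter.

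Of 10 compared genes that maintain imprints or DNA methylation, 1 was called, against 0.454% of all genes 2-fold above both wild types in the Lbr knockout. The gene was Setdb1, a histone H3 lysine 9 methyltransferase. It was at 20.7 FPKM in the Lbr knockout and 19.002 FPKM in the Lmna knockout against 9.41 and 8.68 FPKM in the Lbr-litter and Lmna-litter wild types. The call was in the Lbr knockout, with log2 differences of 1.06 and 1.17, and the Lmna knockout was at 1.05 and 0.94. Dnmt3a, a de novo DNA methyltransferase, was at 8.52 and 8.59 FPKM in the Lbr and Lmna knockouts against 7.00 and 7.21 FPKM, a smaller step in the same direction. Trim28, a corepressor that binds methylated imprints through zinc finger proteins, was below both wild types in the Lbr knockout and above both in the Lmna knockout, at 61.7 and 77.3 FPKM against 70.5 and 69.2 FPKM. Zfp445, such a zinc finger protein, separated by litter, at 11.1 and 11.9 FPKM in the Lbr litter (wild type, then knockout) and 6.88 and 5.82 FPKM in the Lmna litter.

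In wild-type striated muscle, 9 of the 10 genes were more abundant than in either wild-type myoblast column, from 2.22-fold for Peg3 upward. Wild-type muscle held H19 at 2676 FPKM, Meg3 at 780 FPKM and Igf2 at 396 FPKM, followed by Cdkn1c at 217, Mest at 98.1, Grb10 at 56.0, Peg3 at 39.8, Dlk1 at 38.2, Plagl1 at 33.1 and Nnat at 31.7 FPKM. H19 was above 99.9% of all genes in the table and Meg3 above 99.7%. Peg3 and Dlk1, and Plagl1 and Nnat, are neighbours in this order whose levels are close, and a single column gives no spread to separate them.

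**Figure D3:**
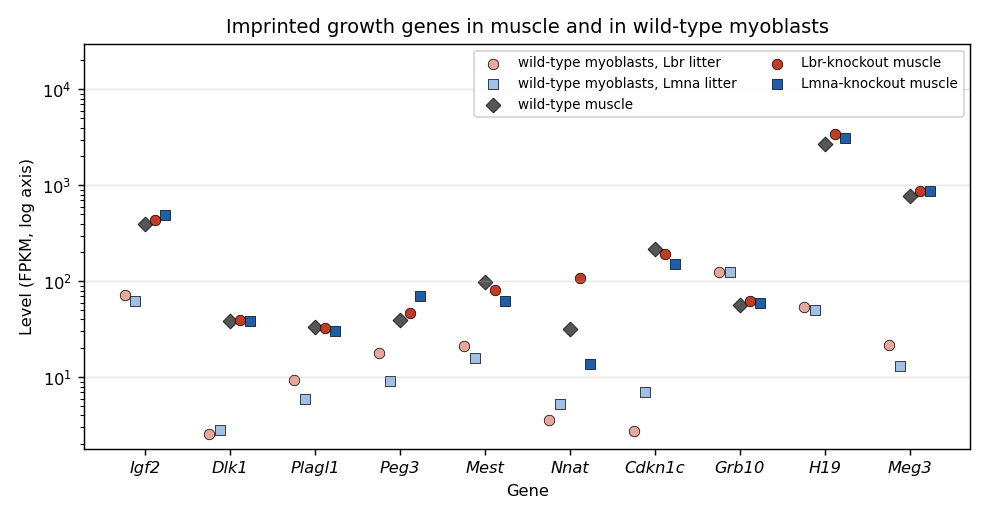
Level of each gene (FPKM, log axis) in the 3 muscle columns and, for comparison, the wild-type myoblast columns. Muscle columns lie above the myoblast columns for 9 genes and below for Grb10, and the muscle columns are spread widely only for Nnat, from 13.6 to 109 FPKM.

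Against both wild-type myoblast columns, 9 of the 10 were at least 2-fold higher in wild-type muscle, against 15.7% of 12145 genes, and Grb10 was lower, against 31.9%. By any amount, 32% of genes were above both and 60.5% below both. Cdkn1c was 78.2-fold higher against the Lbr-litter library, where it was low, and 30.9-fold against that of the Lmna litter, with H19 at 49.3-fold and 53.8-fold and Meg3 at 36.2-fold and 59.2-fold. Dlk1 was 14.8-fold and 13.4-fold higher. Peg3 had the smallest increase, 2.22-fold and 4.39-fold, and with a pseudocount of 5 it was at 0.96 on the log2 scale and not called. Grb10 had log2 differences of -1.15 and -1.16, but the smaller was -0.58 after centring and -0.92 after quantile normalization, below the 2-fold call. Over all genes 1905 were higher and 3873 lower in muscle, or 2825 and 2216 after centring, where the median gene was at -0.52 and -0.55 before it. Tissue and library kit cannot be told apart in this comparison. The ratio of H19 to Igf2 was 6.76 in wild-type muscle and below 1 in every myoblast column. The row of miR-675 stood at 101.01 FPKM in wild-type muscle, 139 FPKM in the Lbr knockout and 79.7 FPKM in the Lmna knockout.

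Both knockouts were then set against the wild-type muscle column, which they share. Litter and targeted gene cannot be told apart in these muscle comparisons. Nnat was the only gene of the 10 past 2-fold, and it was so in opposite directions. It was at 31.7 FPKM in wild-type muscle, 109 FPKM in the Lbr knockout and 13.6 FPKM in the Lmna knockout, log2 differences of 1.74 and -1.16. In the Lbr knockout 1 of 10 genes was 2-fold higher, against 1.3% of 12080 genes, and 0 were lower, against 0.265%. For the Lmna knockout 0 were 2-fold higher, against 1.93% of 12068 genes, and 1 lower, against 0.762%. Over all genes 157 were higher and 32 lower in the Lbr knockout (125 and 47 after centring), and 233 and 92 in the Lmna knockout (160 and 137 after centring). With a pseudocount of 5 Nnat was no longer called in the Lmna knockout.

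**Figure D4:**
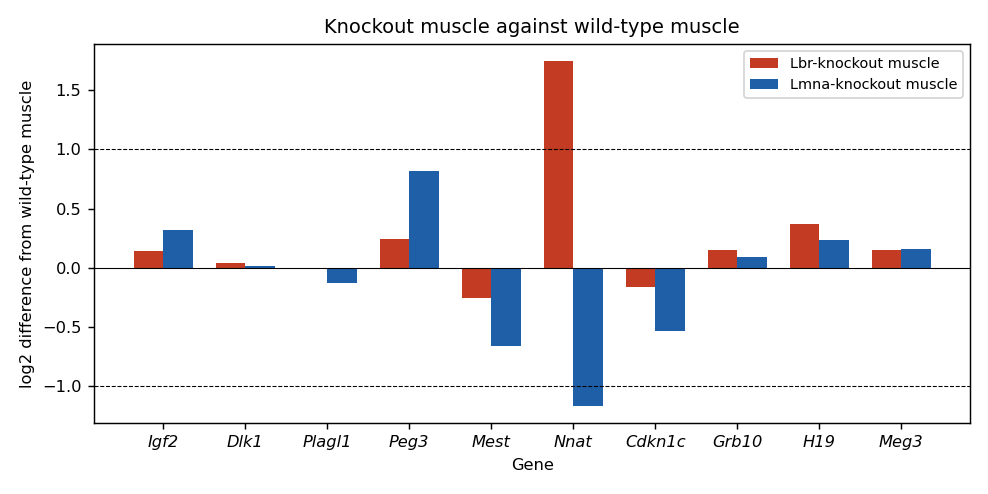
Log2 difference (FPKM + 1) of each gene in Lbr-knockout (red) and Lmna-knockout muscle (blue) from the wild-type muscle column they share, with dashed lines at 2-fold. Nnat alone passes 2-fold, at 1.74 in the Lbr knockout and -1.16 in the Lmna knockout.

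The other genes differed by less than 2-fold in both. By any amount, 7 of the 10 were above and 3 below the wild type in the Lbr knockout, against 66.6% and 33.4% of genes, and 6 above and 4 below in the Lmna knockout, against 65.5% and 34.5%. Peg3 was at 71.0 FPKM in the Lmna knockout and 47.2 FPKM in the Lbr knockout against 39.8 FPKM in the wild type, log2 differences of 0.82 and 0.24. Mest was at 61.9 and 82.1 FPKM against 98.1 FPKM, at -0.66 and -0.25, and Cdkn1c at 150 and 193 FPKM against 217 FPKM, at -0.53 and -0.17. For these 3 genes the Lmna knockout was the further from the wild type. H19 was at 3452 FPKM in the Lbr knockout and 3147 FPKM in the Lmna knockout (0.37 and 0.23), and Igf2 at 437 and 495 FPKM (0.14 and 0.32). Meg3, Grb10, Dlk1 and Plagl1 lay between -0.12 and 0.16 in both knockouts. Dlk1 in both knockouts and Grb10 in the Lmna knockout turned from slightly above to slightly below the wild type after centring. The median of the 10 was 0.15 in the Lbr and 0.05 in the Lmna knockout, with 0.10 and 0.13 over all genes.

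Igf2 and H19, called in Lbr-knockout myoblasts, had ratios to the wild type of 1.10 and 1.29 in Lbr-knockout muscle. The difference between the tissues was not tested. In muscle the 6 adipocyte markers summed to 749 FPKM in the Lbr knockout, 621 FPKM in the Lmna knockout and 503 FPKM in the wild type. Of these, 5 were higher in the Lbr knockout and 5 were lower in the Lmna knockout. All 6 Schwann cell markers were higher in the Lbr knockout (sum 954 against 455 FPKM) and 5 of 6 in the Lmna knockout (589 FPKM). No marker of either list was at 0 in muscle. Their part in the Nnat difference was not tested.

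**Figure D5:**
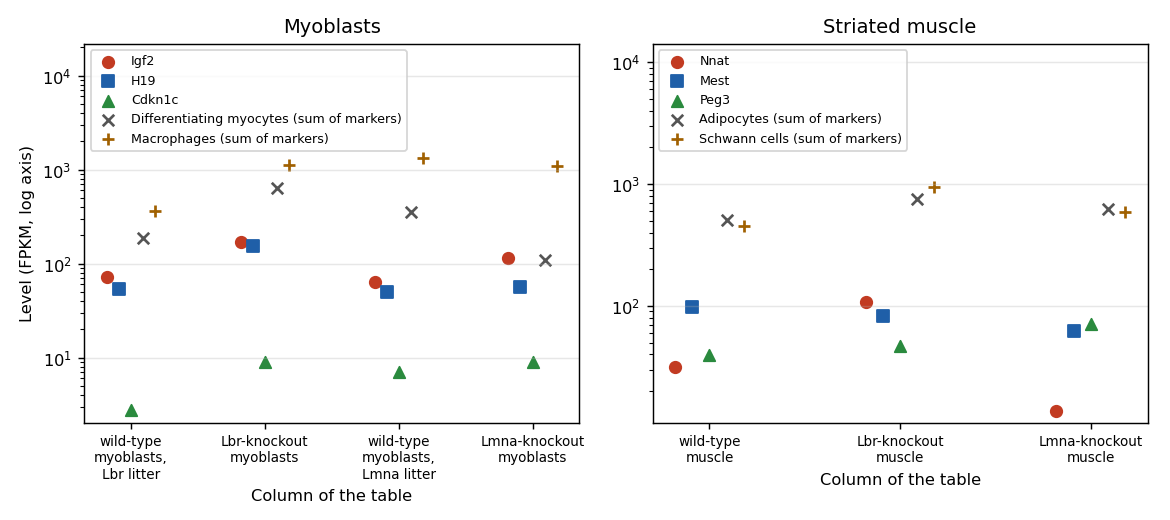
Level (FPKM, log axis) of selected genes beside the summed level of marker lists in the myoblast columns (left) and the muscle columns (right). In the Lbr knockout Igf2 is at 171, H19 at 155 and the sum of differentiation markers at 634 FPKM, each the highest of the myoblast columns. In the Lmna knockout Igf2 is at 114, H19 at 56.9 and that sum at 110 FPKM. The part of differentiation in these levels was not tested.

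Of the further imprinted genes in muscle, 0 of 37 were called in the Lbr knockout, against 1.3% of all genes higher and 0.265% lower. In the Lmna knockout 3 of 38 were called, all lower (Gatm, Ddc and Ins2), against 1.93% of all genes higher and 0.762% lower. Gatm was at 19.1 against 49.7 FPKM and Ddc, an enzyme of amine synthesis, at 9.31 against 21.3 FPKM. Ins2 was at 0.368 against 3.31 FPKM, levels that rest on few fragments, and is listed at 0 in the Lbr knockout. Of the IGF2 signalling genes, 7 were compared, and all 7 were higher in the Lbr and 5 in the Lmna knockout, none by 2-fold, against 66.6% and 65.5% of all genes. Cdkn1a was at 22.1 FPKM in the Lmna knockout, 7.76 FPKM in the Lbr knockout and 4.33 FPKM in the wild type. It was the only gene called among the 6 relatives compared, against 1.93% of all genes higher in the Lmna knockout. Gatm, Ddc, Ins2 and Cdkn1a are named here for their calls. None of the imprint maintenance genes was called in either knockout muscle, Setdb1 standing at 5.06 and 5.44 FPKM in the Lbr and Lmna knockouts and 5.02 FPKM in the wild type.

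The genes whose levels were most alike across the 7 columns were found by Pearson's r of log2(FPKM + 1) among 7722 other genes. The columns share the tissue difference and, in part, litters, so these coefficients describe the table and carry no test. For Igf2 they were Kdr, Glyr1, Cpeb4, Cd55 and Lpl, with r from 0.98 to 0.99, and H19 was at position 9 with 0.97. For H19 they were Tspan13, Ncoa1, Cd55, Exoc6 and Icam2 (r from 0.996 to 0.999), with Igf2 at position 592. For Cdkn1c they were Snapc5, Deb1, Mrpl21, Cilp and Dusp22 (r of 0.996 or 0.997). Nnat was most like Eif2b2, Zcchc17, Pfkfb3, Dnajc8 and Pepd, with r from 0.95 to 0.97, and its highest r with another of the 10 was 0.85, with Cdkn1c. Grb10 had a negative r with each of these 4 genes, from -0.76 with Nnat to -0.96 with H19.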

How the data were processed

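RNA-seq levels were measured in 12 samples. The authors deposited 1 table of FPKM values, with the genes in rows and 1 column for each of the 7 groups. Reads were assigned to build mm9, per the submitters' processing notes. The aligner, the program behind the FPKM values, its annotation, its handling of strand and the joining of 2 samples into 1 column: none is given in the sources used here. No total counts were given, so depth is unknown beyond the estimate in the text. Per the labels' protocols, the myoblast and muscle libraries were made with different NuGEN kits.

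A gene was used where its mean over the tissue's columns reached 1 FPKM and none of the columns compared was 0 (10 of 10 genes passed in every comparison). Differences are log2(FPKM + 1), called at 2-fold, against both wild types where 2 exist. Since a column holds no replicates, a difference has no replicate check, and in the limma fit (version 3.58.1 in R 4.3.3, with trend) p-values measure only the spread between 2 wild-type libraries. Alternatives changed the pseudocount (0.1, 5), the filter (none, 5 FPKM), the scaling, the wild type used and the variance prior; keeping genes listed at 0 was chosen after seeing the data. All 10 genes are named; of each list up to 4 genes with the largest difference from the nearer wild type are named, and for 4 genes the 5 most alike. The genes and lists were chosen with earlier results of these data known. Tables and figures were made with Python 3.11.15, pandas 2.3.3, numpy 2.4.6 and matplotlib 3.10.9.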

Additional observations from a re-analysis of the deposited data

Results flagged for a closer look

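For 2 genes the knockout columns lay on opposite sides of the wild type in myoblasts and in muscle. The differences between tissues were not tested, since no column has a spread, and the myoblast values are those from the nearer wild type. Nnat in the Lmna knockout was at 0.80 on the log2 scale in myoblasts and at -1.16 in muscle. Cdkn1c in the Lmna knockout was at 0.32 in myoblasts and at -0.53 in muscle. Cdkn1c in the Lbr knockout was at 0.33 in myoblasts and at -0.17 in muscle.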

How the results depend on the processing

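No paired analysis was possible because the table holds 1 column per group, and for the same reason no replicate could be left out. Of 126 alternative values of the main counts, 107 stayed within 1.5 times of the main count and 19 did not. In Lmna-knockout myoblasts 0 of the 10 genes were called, against 1 with a pseudocount of 0.1 (Dlk1) and 3 with the Lbr-litter wild type alone (Dlk1, Nnat and Cdkn1c), and 10 rather than 6 were above the Lmna-litter wild type taken alone. With a pseudocount of 5, the calls of Nnat in Lmna-knockout muscle and of Cdkn1c between the wild types went from 1 to 0, and Peg3 was no longer called between tissues. In the limma fit of the Lbr knockout the members called went from 1 to 0 with a pseudocount of 0.1, no filter, centring or quantile normalization. Over all genes that fit called 37, against 14 with a pseudocount of 0.1, 71 with 5, 0 without a filter, 4 after centring, 1 after quantile normalization and 86 with genes listed at 0 kept. The limma fit of the Lmna knockout called 47, against 0 without a filter, 19 after centring, 1 after quantile normalization and 97 with genes listed at 0 kept. The cause was not tested. Counts of 2-fold genes ranged from 18 to 298 around 61 in Lbr-knockout myoblasts, 21 to 518 around 74 in Lmna-knockout myoblasts, 48 to 457 around 189 in Lbr-knockout muscle, 98 to 725 around 325 in Lmna-knockout muscle, 93 to 620 around 312 between wild types and 3569 to 6599 around 5778 between tissues. With a filter of 5 FPKM Dlk1 was not compared in myoblasts.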
